A study of Mus musculus with 2 samples.

Results

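The genes of peroxisomal fatty acid oxidation were compared between regenerating mouse livers that were wild-type (WT) or lacked PPARβ (PPARβ-null, KO). They were 9 genes chosen by name, Ehhadh, Acaa1a, Acaa1b, Hsd17b4, Crat, Crot, Pex11a, Ech1 and Decr2, out of 33224 gene symbols in the deposited table, and all 9 were measured in both libraries. Both libraries came from male mice of the C57BL/6 strain with an age of 4 months in the labels, and liver was taken 48 hr after partial hepatectomy (PH), the operation in which most of the liver is removed so that the remnant regrows. The sample labels differed in the genotype, WT or KO, and PPARβ is a fatty acid-activated nuclear receptor encoded by Ppard. How the null allele was built was not given in the sources used here. Liver RNA of each genotype was sequenced as 1 library, 2 libraries in all, and the deposited table names a different lane for each. Whether a library held RNA of 1 mouse or of a pool was not given in the sources used here. There were therefore no replicates, no difference was tested, and genotype, animals and lane cannot be told apart. Values are FPKM, fragment numbers divided by transcript length and by library size, so that levels of different genes can be compared.

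Peroxisomes shorten very long-chain, branched and some unsaturated fatty acids that mitochondria handle poorly. An acyl-CoA oxidase makes the first double bond and releases hydrogen peroxide, a bifunctional enzyme (Ehhadh or Hsd17b4) hydrates and dehydrogenates the chain, and a thiolase (Acaa1a, Acaa1b or Scp2) cleaves off acetyl-CoA. Ech1 and Decr2 rearrange the double bonds of unsaturated chains, Crat and Crot turn the short and medium-chain products into carnitine esters that can leave for the mitochondria, and Pex11a elongates the peroxisomal membrane before division. In rodent liver many of these genes are textbook targets of PPARα, which binds DNA as a dimer with RXR, and PPARβ can recognise the same kind of element.

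The signal that carries proteins into the peroxisome was not itself read to choose the genes. They were chosen as peroxisomal genes, however, so a high share with such a signal follows largely from that choice. The type 1 signal is the C-terminal tripeptide serine, alanine or cysteine, then lysine, arginine or histidine, then leucine or methionine, and it was read from the codons of the longest coding sequence in GENCODE vM1. It was encoded by 6 of the 9 genes (Ehhadh, Hsd17b4, Crat, Crot, Ech1 and Decr2), against 112 of 21370 coding genes (0.524%). The ends of 4 coding sequences are shown because they pair the genes with the largest KO/WT ratios, Ehhadh and Crot, with the 2 enzymes of unsaturated chains, which differed from each other. Capitals mark the final 3 sense codons, followed by the stop codon, and the sequence is the coding strand from 5′ to 3′.
Ehhadh: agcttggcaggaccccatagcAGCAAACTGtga
Crot: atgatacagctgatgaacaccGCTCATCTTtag
Ech1: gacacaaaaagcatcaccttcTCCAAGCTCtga
Decr2: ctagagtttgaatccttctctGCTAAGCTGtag
Ehhadh and Ech1 encode serine, lysine and leucine there, Decr2 alanine, lysine and leucine, and Crot alanine, histidine and leucine. Decr2 and Ech1 thus carried the same class of signal while their mRNA levels differed between the livers in unlike ways.

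The type 2 signal, a short motif near the N-terminus, was encoded within the first 40 codons by Acaa1a, Acaa1b and Pex11a, against 229 of all coding genes (1.07%). For the membrane protein Pex11a this is a match of letters only. The coding starts of both thiolases are shown because their near identity limits how well the reads can tell them apart. Capitals mark the single base in which the first 60 coding bases differ, C27T from Acaa1a to Acaa1b, counted from 1 at the A of the start codon, and both codons encode glycine.
Acaa1a: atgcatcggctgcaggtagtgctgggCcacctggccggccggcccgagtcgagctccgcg
Acaa1b: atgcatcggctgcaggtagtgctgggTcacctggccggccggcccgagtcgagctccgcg
Over the whole coding sequence of 1275 nt, 44 bases differed (96.5% identity), and 18 of 424 codons encoded another residue. Of the 100-base windows of the Acaa1a transcript, 360 of 1659 (21.7%) occurred unchanged in the Acaa1b transcript, and 360 of 1590 (22.6%) of those of Acaa1b occurred in Acaa1a. Reads from these windows can be assigned to either gene, so the separate levels of the thiolases are uncertain and their sum is given beside them.

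In the regenerating livers 8 of the 9 genes had a higher FPKM in KO than in WT, and Decr2 was at nearly the same level in both. The ratio KO/WT was above 1.5 for 6 genes, Ehhadh (2.95), Crot (2.35), Crat (2.00), Pex11a (1.76), Ech1 (1.66) and Acaa1a (1.57), and it was below 1.5 for Acaa1b (1.47), Hsd17b4 (1.42) and Decr2 (0.996). For comparison, 4.20% of the 11723 expressed genes (mean FPKM of at least 1) were more than 1.5-fold higher in KO and 19.9% were more than 1.5-fold lower, and 0 of the 9 genes were in the second group. A fold above 2 was seen for 3 of the 9 genes, Crat lying at the line, and for 1.77% of expressed genes. Of the 5109 genes whose mean FPKM reached 10, 4.97% were more than 1.5-fold higher. In bulk liver RNA, more RNA per cell and more cells that carry it cannot be told apart.

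**Figure D1:**
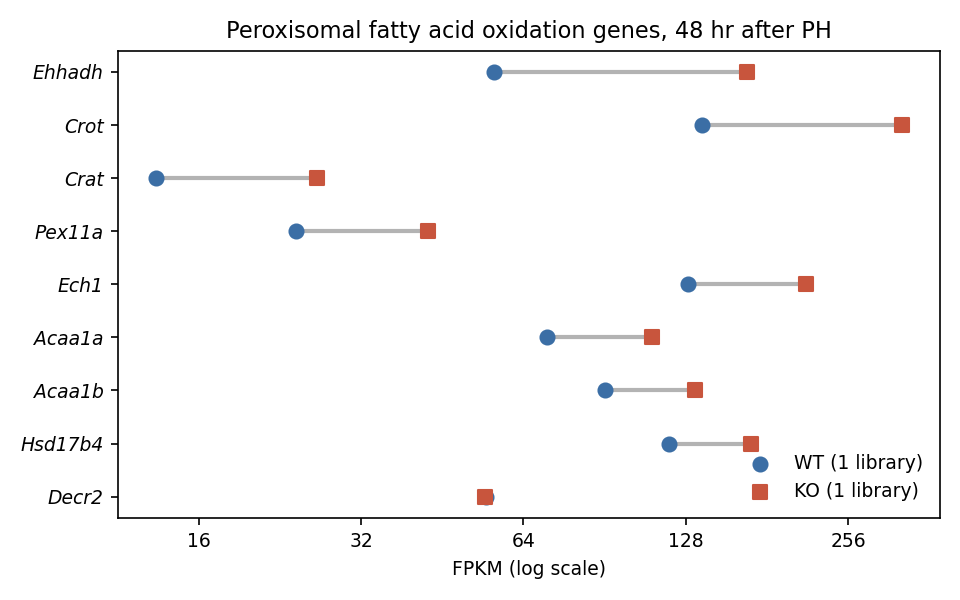
FPKM (log scale) of the 9 genes in the WT library (circles) and the KO library (squares), 1 library each, ordered by the KO/WT ratio. Ehhadh had the widest gap, from 56.4 to 166 FPKM, and the points of Decr2 lie on each other.

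The scaling of the libraries matters for these ratios, since most genes were lower in KO. Over all expressed genes the median log2 KO/WT of (FPKM + 0.1) was -0.24, a 1.18-fold lower level in KO, and 75.6% of them were lower. The median over the 9 genes was 0.73 on the same scale, with a range from -0.01 to 1.56. When the ratios were centred on that median it was 0.97, 8 of the 9 genes were more than 1.5-fold higher, and 7.30% of expressed genes were more than 1.5-fold higher and 12.1% lower. Decr2 was the exception, at 0.23 after centring. Of expressed genes, 99.4% had a lower ratio than Ehhadh, 99.0% than Crot, 95.6% than Acaa1b and 75.2% than Decr2.

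**Figure D2:**
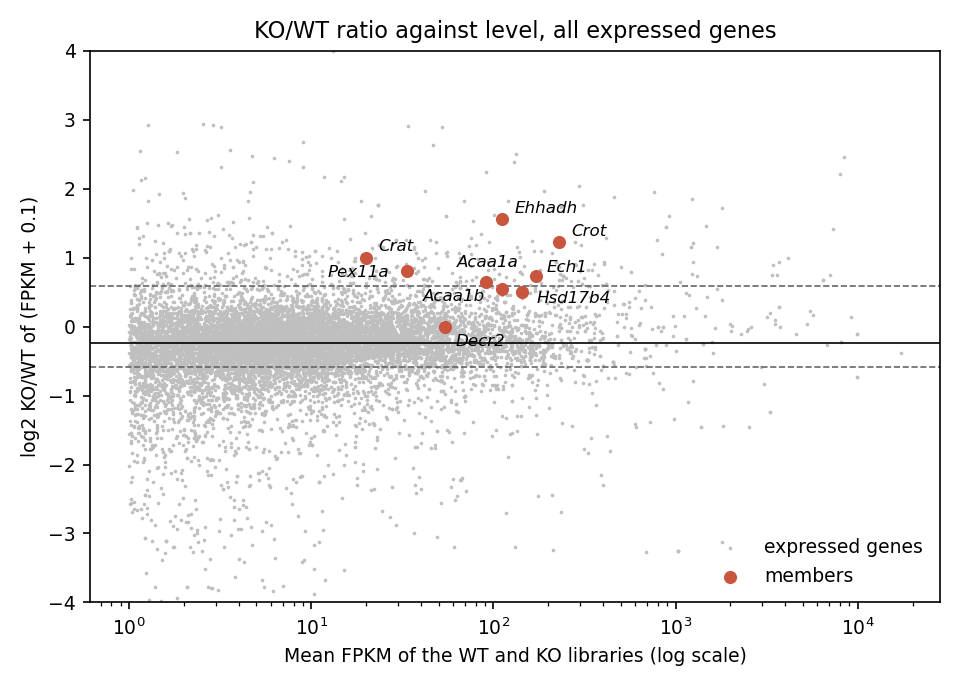
Log2 KO/WT of (FPKM + 0.1) against the mean FPKM (log scale) for expressed genes (grey) and the 9 genes (red). The solid line is the median of expressed genes (-0.24), dashed lines mark 1.5-fold, and 119 genes lie beyond the axis. Of the 9 genes, 8 lie above 0 and all 9 above the median line.

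Among the chosen genes of peroxisomal fatty acid oxidation, Ehhadh, of the second step of the cycle, had the largest KO/WT ratio. Hsd17b4, which acts in the same step, had a ratio of 1.42. Ehhadh (chromosome 16, 21761360 to 21787917 in NCBIM37, minus strand, 7 exons), the L-bifunctional enzyme, stood at 56.4 FPKM in the WT library and at 166 FPKM in the KO library. Its ratio of 2.95 had a 95% counting interval from 2.88 to 3.02. Counting intervals here are exact binomial intervals on estimated fragments (8753 and 28059 for Ehhadh), cover counting error only and say nothing of the difference between mice. Among expressed genes Ehhadh moved from rank 1401 by FPKM in WT to rank 413 in KO. A gene of the small nuclear RNA U6 on the plus strand shares 106 bp with Ehhadh. The symbol U6, summed over its rows, was at 32.9 FPKM in WT and 28.5 FPKM in KO.

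Hsd17b4 (chromosome 18, 50287855 to 50355923, plus strand, 24 exons), the D-bifunctional enzyme that also serves branched chains and bile acid precursors, stood at 119 FPKM in WT and at 169 FPKM in KO. The ratio was 1.42 (1.39 to 1.45), smaller than that of Ehhadh beyond counting error. The pseudogene Cd63-ps, which shares 875 bp with Hsd17b4, was at 0.897 and 0.891 FPKM. The level of Ehhadh was 0.473 of that of Hsd17b4 in the WT library and 0.983 of it in the KO library, so the L enzyme, the lesser transcript in WT, was about level with the D enzyme in KO. Such ratios within a library do not depend on how the libraries were scaled.

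The thiolases cleave the chain in the last step. Acaa1a (chromosome 9, 119250412 to 119259413, plus strand, 12 exons) was at 70.7 FPKM in WT against 111 FPKM in KO, 1.57-fold (1.52 to 1.62). Acaa1b (chromosome 9, 119057141 to 119066211, minus strand, 12 exons) was at 90.5 FPKM against 133 FPKM, 1.47-fold (1.43 to 1.51). The pair thus lay on either side of the 1.5-fold line while their ratios were close. Their summed FPKM was 161 in WT and 244 in KO, 1.51-fold higher, and Acaa1a stood at 0.781 of Acaa1b in WT and 0.836 in KO. Gene ends overlap here, Acaa1a with Myd88 by 118 bp and Acaa1b with Dlec1 by 224 bp, and no strand setting of the counting was given. Myd88 was at 7.21 and 9.22 FPKM in WT and KO and Dlec1 at 0.664 and 0.713, far below the thiolases.

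Both carnitine acyltransferases were higher in KO. Crot, the octanoyltransferase that exports medium-chain products, had the highest level of the 9 genes in both libraries, 137 FPKM in WT against 323 FPKM in KO, 2.35-fold (2.32 to 2.39). Its row (chromosome 5, 8962131 to 8999669) also names the gene model Gm15611, so the values belong to the joint locus, and Crot itself spans 8966033 to 8997324 on the minus strand with 18 exons. The gene model Gm15610, which shares 449 bp with Crot, was at 4.98 and 5.28 FPKM. Crat, the acetyltransferase, also known from mitochondria, had the lowest level of the 9 genes, 13.3 FPKM in WT against 26.5 FPKM in KO. The ratio was 2.00, and its interval from 1.92 to 2.09 spans the 2-fold line. Crat (chromosome 2, 30255991 to 30271333, minus strand, 15 exons) overlaps Dolpp1 by 59 bp and the gene model Gm16323 by 1623 bp, which were at 6.60 and 5.96 FPKM and at 0.0635 and 0.324 FPKM in WT and KO. The level of Crot over that of Crat was 10.4 in WT and 12.2 in KO.

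Pex11a (chromosome 7, 86880843 to 86888017, minus strand, 3 exons), the inducible member of the family that divides peroxisomes, was at 24.2 FPKM in WT against 42.6 FPKM in KO. The ratio was 1.76 (1.68 to 1.84). Its relative Pex11c was at 21.7 FPKM in WT and 17.0 FPKM in KO.

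The enzymes of unsaturated chains parted. Ech1, a dienoyl-CoA isomerase also found in mitochondria, was at 129 FPKM in WT against 214 FPKM in KO, 1.66-fold (1.61 to 1.70), in a row (chromosome 7, 29610166 to 29626722) that also names Lgals4. The gene Ech1 spans 29610236 to 29617266 on the plus strand with 10 exons, and the part of Lgals4 in the joint value could not be separated. Decr2 (chromosome 17, 26218156 to 26227274, minus strand, 9 exons), the peroxisomal dienoyl-CoA reductase, was at 54.5 FPKM in WT against 54.3 FPKM in KO. Its ratio of 0.996 had a counting interval from 0.962 to 1.03, and its direction turned with the scaling, from -0.01 on the log2 scale as deposited to 0.20 with equal upper quartiles. The level of Ech1 over that of Decr2 was 2.38 in WT and 3.95 in KO. Eci2, a peroxisomal enoyl-CoA isomerase of the same branch, was at 84.1 in WT and 159.7 in KO, so that Eci2 over Decr2 went from 1.54 to 2.94. Decr1, the mitochondrial counterpart of Decr2, was at 51.4 in WT and 80.4 in KO, and its level over that of Decr2 was 0.943 and 1.48.

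Together the 9 genes summed to 695 FPKM in WT and 1239.7 in KO, 1.78-fold higher. Their make-up differed between the libraries. Ehhadh took 8.11% of the sum in WT and 13.4% in KO, and Crot 19.7% and 26.0%. The share of Decr2 was smaller in KO (7.84% in WT and 4.38% in KO), as were those of Hsd17b4 (17.1% and 13.6%) and Acaa1b (13.0% and 10.7%). The shares of Pex11a (3.48% and 3.44%) and Crat (1.91% and 2.14%) were close in both.

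Not every gene of peroxisomal lipid metabolism shared this pattern. Of 21 other peroxisomal lipid enzymes and transporters, 5 were more than 1.5-fold higher in KO. Only 20 of the 21 counted as expressed, and 4 of these were higher by that fold, beside 4.20% of all expressed genes. More than 1.5-fold lower were 3, beside 19.9% of expressed genes. The median log2 ratio of the 21 was 0.02 as deposited and 0.26 after centring. The 5 became 8 after centring, beside 7.30% of expressed genes, and 3 with a pseudocount of 1. The 5 and the 8 include Eci3, which was below the limit for expressed genes. Scp2, the sterol carrier and thiolase of branched chains, was at 999.8 and 1375, and Phyh, which starts the breakdown of phytanic acid, at 854 and 847 in a row shared with Gm13194. The 5 higher genes were Eci2, the epoxide hydrolase Ephx2 (173 and 293), the acyl-CoA synthetase Slc27a2 (227 and 359), the thioesterase Acot8 (10.1 and 15.5) and Eci3 (0.109 and 0.171), the last 2 named after their values were seen. The 3 lower genes were the transporter Abcd2 (2.31 and 0.690) and the coenzyme A hydrolases Nudt7 (217 and 97.3) and Nudt19 (30.5 and 17.2). The latter enzymes limit the peroxisomal pool of coenzyme A, a cofactor of the cycle.

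**Figure D3:**
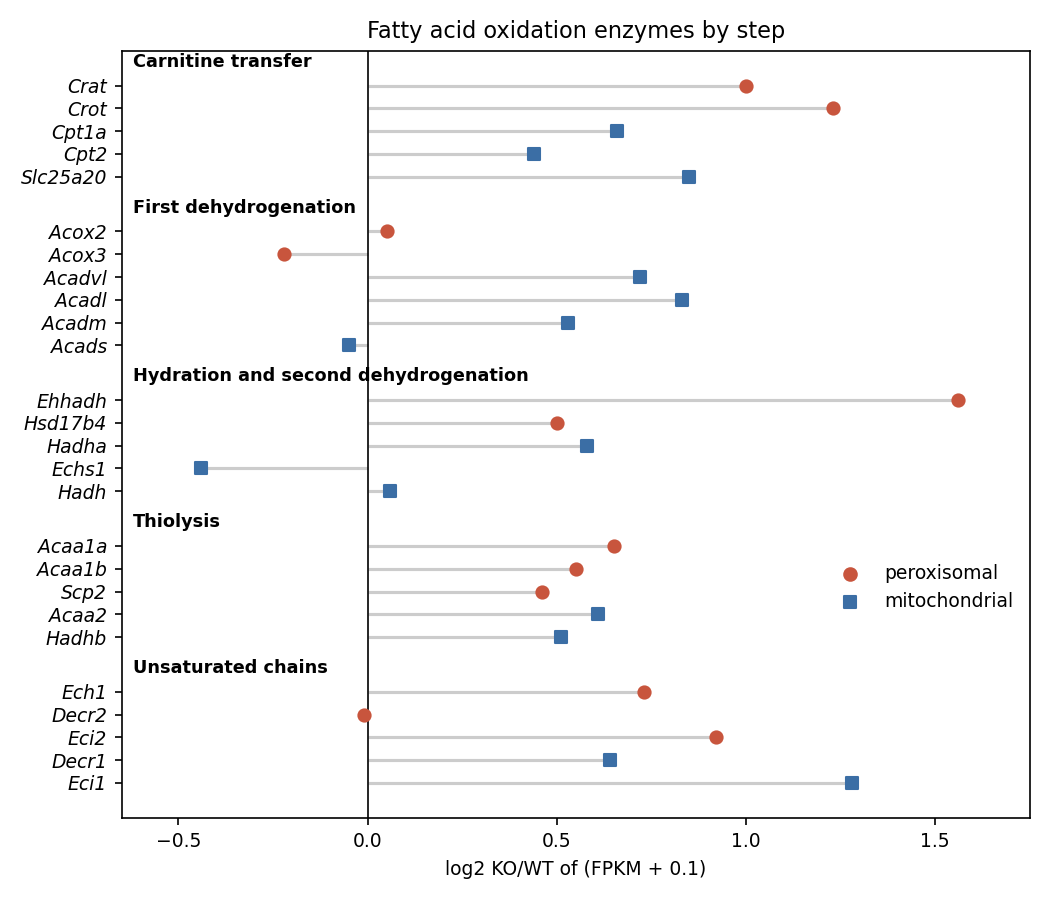
Log2 KO/WT of (FPKM + 0.1) for peroxisomal (circles) and mitochondrial (squares) enzymes, grouped by step of fatty acid oxidation. Ehhadh (1.56) is farthest to the right, Acox2 and Acox3 lie near 0, and Decr2 lies at -0.01 between Ech1 and Eci2.

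Genes that build the organelle stayed within 1.5-fold as deposited. Of 15 peroxisome biogenesis genes, 0 passed 1.5-fold in either direction, beside 4.20% of expressed genes higher and 19.9% lower by that fold. In KO 11 of the 15 were higher and 4 lower, beside 75.6% of expressed genes lower. The log2 ratios had a median of 0.18, or 0.42 after centring, and a range from -0.37 to 0.41 as deposited. The receptors that import proteins with the type 1 and the type 2 signal, Pex5 and Pex7, were at 38.4 and 38.5 and at 24.4 and 21.3 FPKM in WT and KO. Pex19, which inserts membrane proteins, was at 50.4 and 57.9, Pex16, in a joint row, at 34.3 and 41.7, and Pex26, the anchor of the export complex, at 9.21 and 7.08. Pex6, an ATPase of that complex, was at 17.8 and 23.6.

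Peroxisomal enzymes of other pathways were also measured. Of 15 such genes 13 could be measured (Hao2 and Dao were listed at 0 in both libraries), of which 11 were lower and 2 higher in KO, beside 75.6% of all expressed genes lower. Their median log2 ratio was -0.40 as deposited and -0.16 after centring, beside -0.24 as deposited for all expressed genes. More than 1.5-fold lower were 2 of the 13, beside 19.9% of expressed genes. They were the urate oxidase Uox (584 and 350.4 FPKM) and the polyamine oxidase Paox (13.6 and 6.10). The membrane protein Pxmp4 (41.9 and 87.3) was the 1 gene of the 13 more than 1.5-fold higher, beside 4.20% of expressed genes. Catalase, Cat, which breaks down the hydrogen peroxide made by the oxidases, was at 775 in WT and 569 in KO, and the peroxiredoxin Prdx5, in a row shared with Esrra, at 193 and 147. Hao1, the glycolate oxidase, was at 128 and 123, Pxmp2 at 99.1 and 68.1, and Mpv17, in a joint row, at 31.4 and 32.0. After centring, 1 gene of the list in place of 2 was more than 1.5-fold lower, beside 12.1% of expressed genes.

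Mitochondrial fatty acid oxidation was the related list whose median was nearest to that of the 9 genes. Of its 17 genes 8 were more than 1.5-fold higher in KO, beside 4.20% of expressed genes, and 0 more than 1.5-fold lower, beside 19.9%. After centring 12 were higher by that fold, beside 7.30% of expressed genes. The median log2 ratio was 0.58 as deposited. The enoyl-CoA isomerase Eci1 was at 43.9 FPKM in WT and 107 in KO, the carnitine carrier Slc25a20 at 35.5 and 64.2, and the long-chain dehydrogenase Acadl at 72.6 and 129. The very long-chain dehydrogenase Acadvl was at 124 and 204 and the thiolase Acaa2 at 311 and 475. The hydratase Echs1 was at 126 and 93.0, the short-chain dehydrogenase Acads, in a joint row, at 137 and 132, and the electron carriers Etfa and Etfb, the latter in a joint row, at 192 and 169 and at 237 and 234. Hadha, the mitochondrial counterpart of the bifunctional enzymes, was at 91.8 and 137, and the level of Ehhadh over that of Hadha was 0.614 in WT and 1.21 in KO.

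**Figure D4:**
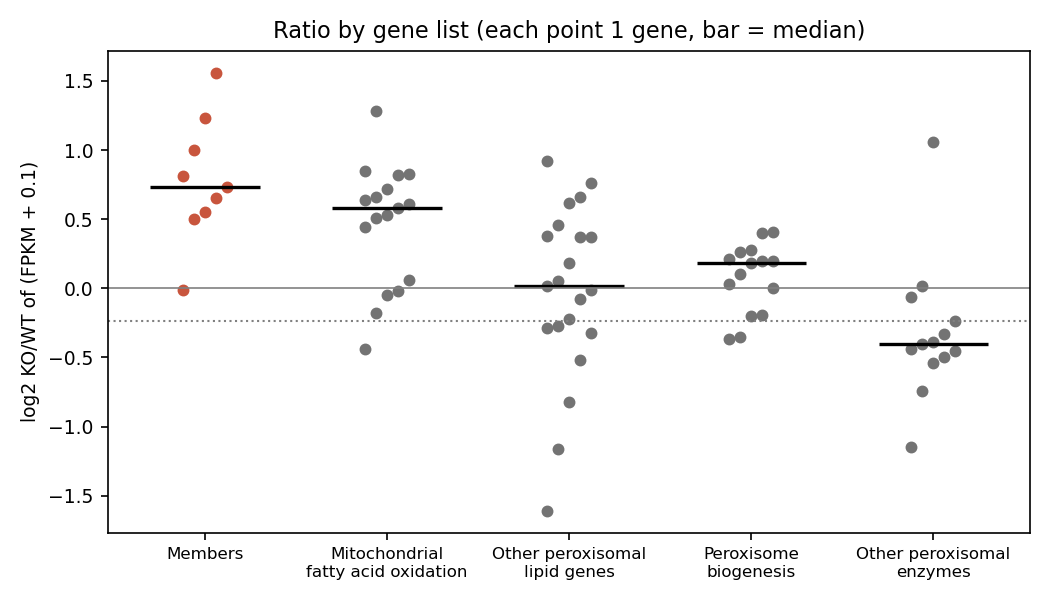
Log2 KO/WT of (FPKM + 0.1) of single genes (points) in the 9 genes and 4 related lists, with the median of each list (bars). The grey line is 0 and the dotted line the median of expressed genes (-0.24). The medians are 0.73, 0.58, 0.02, 0.18 and -0.40 from left to right.

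Receptors and coactivators that act on such genes were listed too. Ppard, the targeted gene, was at 2.67 FPKM in WT and 2.42 in KO. This value covers the whole locus, from which a null allele may still be transcribed, so it does not check the genotype labels. Ppara was at 24.4 and 25.2, Pparg at 3.76 and 2.64, and the partners Rxra, Rxrb and Rxrg at 91.2 and 114, at 9.60 and 9.15 and at 1.52 and 1.87. The coactivators Ppargc1a and Ppargc1b were at 2.83 and 1.97 and at 0.600 and 0.404. Of these 8 genes 0 passed 1.5-fold in either direction, beside 4.20% of expressed genes higher and 19.9% lower by that fold.

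The PPAR and RXR dimer binds a direct repeat of a half-site with 1 base between, and this element (DR1) was searched on both strands as AGGNCA, any base, AGGNCA. In RefSeq promoters of GRCm38.p6 (300 bases around the start), 7 of the 9 genes were matched, all but Crat and Hsd17b4. The element was in 0 of these 7 and in 125 of 32851 promoters (0.381%), and the half-site AGGTCA, which overlaps it, in 0 of 7 and in 5340 (16.3%). A wider window from 5000 bp before to 1000 bp after the gene start in NCBIM37, chosen after the first search, held it for 2 of the 9 genes, Acaa1b and Crat, and for 2188 of 22380 coding genes (9.78%). Both elements before Acaa1b are shown with their flanks, plus strand, element in capitals, since no other of the 9 genes held 2.
Acaa1b at chr9:119067139-119067181, 949 bp before the start: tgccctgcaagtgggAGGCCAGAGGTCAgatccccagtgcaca
Acaa1b at chr9:119069649-119069691, 3459 bp before the start: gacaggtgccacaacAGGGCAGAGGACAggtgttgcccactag
The Crat element lay 2011 bp before the start. These are matches of letters, and a gene without a match lacks only these letters in this window.

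The tissue markers were those of liver. Apoa2, a hepatocyte apolipoprotein, was at 5079.6 FPKM in WT and 5916 in KO, and the 9 hepatocyte markers summed to 20576 and 20697, a ratio of 1.01. Among them Cyp2e1 was more than 1.5-fold higher in KO (1039 and 2319) and Ass1 (2672 and 983), Cps1 (1597 and 743) and Tat (1115 and 595) more than 1.5-fold lower, named after their values were seen. The summed markers of most other cell types were lower in KO. Of all expressed genes 75.6% were lower, and 19.9% were more than 1.5-fold lower, or 12.1% after centring. Summed macrophage markers were at 59.7 and 37.3 (6 of 7 more than 1.5-fold lower, or 4 of 7 after centring, Cd5l at 18.4 and 10.8). Endothelial markers were at 28.4 and 17.5 (5 of 6, or 3 of 6 after centring, Stab2 at 9.66 and 6.23). Stellate cell markers were at 100.3 and 61.8 (3 of 6, or 2 of 6 after centring, Dcn at 62.6 and 46.9). Cholangiocyte markers were at 29.8 and 25.7 (3 of 5 measurable, Spp1 at 24.5 and 22.7), neutrophil markers at 13.0 and 6.98 (2 of 3, S100a8 at 6.68 and 3.33, Camp at 0 in both), and erythroid markers at 295 and 252 (1 of 4 lower and 1 higher, Hba-a1 at 139 and 113). Lymphocyte markers were at 0.645 and 0.359 (3 of 3 with a mean FPKM of at least 0.1, Cd79b at 0.155 and 0.0797). Of the lymphocyte markers 0 reached a mean FPKM of 1, the limit for expressed genes, so the shares above do not apply to them. Of the cholangiocyte, neutrophil and erythroid markers 3, 2 and 3 reached that level. The adipocyte markers summed to 3.44 and 7.84, nearly all from Cidec, a lipid droplet protein, at 3.08 and 7.84 (Lep and Ucp1 at 0 in both). The part of these cell types in the ratios of the 9 genes was not tested.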

How the data were processed

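Liver RNA of WT and KO mice was sequenced as 1 library per genotype, with 100 bp reads after library preparation with the TruSeq kit. The labels describe paired ends and the study's methods single ends. The submitters' processing notes name Cufflinks 1.3.0 with Cuffdiff, after alignment with TopHat2 2.0.0. The deposited table gives 1 FPKM per locus and library, computed by the authors, and its loci follow GENCODE vM1 on NCBIM37. Its fold change, test statistic, p, q and significance columns hold the authors' own comparison and were not used.

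Of 38016 loci, 21 marked HIDATA were dropped, 2302 carried no symbol, and 850 joint rows gave their value to every symbol they list. Rows of one symbol were summed. Ratios were taken from FPKM, and log2 ratios with a pseudocount of 0.1, which understates changes of low genes. Lists kept genes whose mean FPKM reached 0.1, and expressed genes were those whose mean reached 1. Summed FPKM were 523713 in WT and 522858 in KO. Read totals were not given in the table. The lowest values of 3118 single-exon genes put 1 fragment on 1 kb at 0.0194 FPKM in WT and 0.0179 in KO, from piles of 44 and 47 values, and fragments per gene were estimated from this and the longest transcript. Their 95% Clopper-Pearson intervals cover counting error only. With 1 library per genotype no test was run, and the spread between mice is unknown.

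Named beside the 9 genes were, from each related list, the 4 with the highest mean FPKM and the 3 highest and 3 lowest ratios (mean FPKM of at least 1), all receptors, and the top marker of each cell type. The genes and lists were chosen with earlier results of these data known. Alternatives were other scalings, pseudocounts, filters, fold limits, joint rows and the status column. Scripts were tested on simulated data and ran in Python 3.11.15 with biopython 1.88, matplotlib 3.10.9, scipy 1.17.1, pandas 2.3.3 and numpy 2.4.6. Protein sequences were not used here, and some genes that the rule names are not reported here.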

Additional observations from a re-analysis of the deposited data

How the results depend on the processing

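With 1 library per genotype, no leave-one-out analysis was possible, and the spread between mice is unknown. Depth gave each of the 9 genes at least 2791 estimated fragments per library (Pex11a in WT). No paired analysis was possible because each genotype has 1 library and no test was run. Under the alternatives 526 values were recomputed, of which 470 stayed within a set margin and 56 moved by more. The margin was the counting interval of a gene's ratio, the order-statistic interval over genes of a list's median, or 1.5 times a count. The direction of 0 called values changed, but the largest scaling, 1.18-fold, is too small to turn a ratio beyond 1.5-fold. Some alternatives, such as the status column, could not change the values of the 9 genes. For the 9 genes the median log2 ratio ranged from 0.65 without rows that name several symbols, where 4 of the remaining 7 genes were more than 1.5-fold higher, to 0.93 with equal upper quartiles and 0.97 after centring, with 8 genes each. With a fold above 2 the count of 6 fell to 3. The median of the biogenesis genes (0.18) was 0.38 with equal upper quartiles and 0.42 after centring, where 2 genes passed 1.5-fold, and that of mitochondrial fatty acid oxidation (0.58) was 0.78 and 0.81. The share of expressed genes more than 1.5-fold higher (4.20%) was 7.30% after centring and 1.77% with a fold above 2, and the share lower (19.9%) was 12.1% and 8.69%. Decr2 had a log2 ratio of -0.01 as deposited and 0.23 after centring. Of lists of markers, those with an FPKM near 0 moved with the pseudocount and the filter.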
